A study of Homo sapiens with 6 samples.

Results

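The ATF4 amino acid stress response was examined as a set of 44 named genes, taken by symbol from a table of 15585 genes counted in 6 RNA-seq libraries. A row was found for 43 of the 44 members, and SESN2 was not analysed here. The set was divided by role into eIF2 and its kinases, transcription factors, stress effectors and feedback genes, serine and one-carbon enzymes, other amino acid enzymes, amino acid transporters and tRNA genes. The libraries came from U2OS, a human osteosarcoma cell line. In the siCTR group (3 libraries) the cells received a control siRNA, and in the siLSD1 group (3 libraries) an siRNA against LSD1, a histone lysine demethylase. RNA of both groups was taken 48 h after transfection. The question was whether loss of LSD1 goes with a change of this response. The sources used here name 1 control siRNA sequence and a pair of LSD1 siRNAs, and do not say which of the pair made these libraries, so siRNA sequence and LSD1 loss cannot be told apart. They also do not say whether the numbered replicates came from separate cultures, so the p-values measure the spread between these libraries, which may be technical.

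Kinases that sense amino acid shortage, unfolded protein, double-stranded RNA or heme deficiency phosphorylate the translation factor eIF2. General translation then slows while the ATF4 mRNA is translated more, so ATF4 protein can rise without a change in its mRNA. ATF4 binds with C/EBP partners to composite C/EBP-ATF elements near genes for amino acid synthesis, amino acid uptake, tRNA charging and stress handling, and one of its targets, PPP1R15A, brings a phosphatase back to eIF2. RNA counts show the mRNA of these genes and neither eIF2 phosphorylation nor ATF4 protein.

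The promoter sequences of several members show the element by which the set is commonly recognised. RefSeq promoters on GRCh38.p14, running from 250 bases before to 50 bases after the start of transcription, were at hand for 37 of the 44 members. The letters TGATGNAA, on either strand, were found in 13 of these 37 promoters (35.1%), against 3.62% of all 35116 promoters of the same length. Counted by gene, as the members were, it was found for 4.46% of 27305 genes with a promoter and for 2.65% of the 9372 of them that were tested. A match of letters is a description of the sequence and not evidence of binding. The windows of 30 bases below were chosen because their genes are described in detail in the results, and the capitals mark the matched letters, with TTNCATCA being the match on the other strand.
CHAC1 (chr15:40953251-40953280, + strand): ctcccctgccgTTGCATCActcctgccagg
ATF3 (chr1:212565205-212565234, + strand): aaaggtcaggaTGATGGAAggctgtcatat
JDP2 (chr14:75427995-75428024, + strand): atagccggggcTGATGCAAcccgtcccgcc
SLC7A1 (chr13:29595663-29595692, − strand): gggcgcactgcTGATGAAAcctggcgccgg
CEBPG (chr19:33374060-33374089, + strand): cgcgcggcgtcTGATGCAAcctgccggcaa
SLC1A4 (chr2:64989381-64989410, + strand): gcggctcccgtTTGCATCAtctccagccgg
ASNS (chr7:97872458-97872487, − strand): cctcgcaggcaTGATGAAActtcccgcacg

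The other members with the letters were MTHFD1L, CARS1, SLC3A2, SLC38A1, SLC1A5 and FGF21. The CRE letters TGACGTCA, which stand for a related element bound by ATF and CREB proteins, occurred in the promoter of 1 member, PPP1R15A (2.7% of the 37), and in 1.85% of all promoters. Counted by gene, they occurred in 2.25% of genes with a promoter and in 3.93% of those that were tested. The PPP1R15A window is shown because this gene had the lowest p-value among the members that missed the adjusted threshold.
PPP1R15A (chr19:48872352-48872381, + strand): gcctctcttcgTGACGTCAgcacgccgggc

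In CHAC1 the match lay 209 bases before the start of transcription. The 250 bases before that start (chr15:40953221-40953470, + strand) are given in full because CHAC1 had the second highest fold change of the tested members.
CHAC1: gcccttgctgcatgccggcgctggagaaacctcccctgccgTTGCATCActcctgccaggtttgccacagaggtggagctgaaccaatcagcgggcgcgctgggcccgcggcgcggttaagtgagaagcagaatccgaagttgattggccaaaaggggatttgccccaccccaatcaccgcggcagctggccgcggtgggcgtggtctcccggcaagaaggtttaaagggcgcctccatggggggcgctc

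The knockdown was checked first. KDM1A, the gene for LSD1, was counted with 6140, 6493 and 6573 reads under siCTR and 1110, 1198 and 1246 under siLSD1, and fell by 2.44 on the log2 scale (standard error 0.11, adjusted p = 2.27e-07, Benjamini-Hochberg method on edgeR quasi-likelihood p-values). The libraries held 12513511 to 13561344 counted reads each. Over all genes siCTR replicate 2 stood apart, since its counts differed from each other library by a chi-square of 22.7 to 39.25 per degree of freedom, while the other pairs ran from 6.45 to 24.31. Bone lineage markers were uneven, since ALPL and VIM were well above background in every library while RUNX2, SP7 and SPARC had 0 to 4 reads each, and the 8 of 9 markers with a row summed to 1110 to 1220 CPM in siCTR and 1160 to 1200 CPM in siLSD1. For the markers of other cell types, of which 5 of 6 had a row, the summed level was 7.44 to 9.7 CPM in siCTR and 12.3 to 13.6 CPM in siLSD1. That difference lay in CDH1 (log2 fold change 0.77, adjusted p = 0.0699, Benjamini-Hochberg method on edgeR quasi-likelihood p-values), while KRT5, PTPRC and PECAM1 had 0 to 3 reads per library, and the part of these markers in the results was not tested. In bulk RNA, a change in the share of cells that express a gene and a change in RNA per cell cannot be told apart.

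Of the 43 members with a row, 41 had enough reads to be tested. FGF21, which encodes a secreted stress hormone, was counted with 0, 0 and 1 reads under siCTR and 4, 0 and 2 under siLSD1. SHMT1, the cytosolic serine hydroxymethyltransferase, was counted with 0, 0 and 2 reads under siCTR and 0 in every siLSD1 library. Both were therefore too low for a comparison, whereas SHMT2, the mitochondrial form, had 3252 to 3876 reads.

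Most members lay slightly higher in siLSD1, and few of them passed the test. The fitted log2 fold change was above 0 for 35 of the 41 tested members and below 0 for 6, while 47.3% of all 11844 tested genes were above 0. The members' median was 0.18, with a median standard error of 0.13, beside −0.01 over all tested genes, and the range ran from −0.49 for ATF5 to 0.95 for ALDH1L2. At an adjusted p under 0.05, 2 members rose, STC2 and ALDH1L2, and 0 fell (edgeR quasi-likelihood test, Benjamini-Hochberg adjustment over all tested genes), against 1.07% of tested genes higher and 0.371% lower (1.44% in either direction). At an unadjusted p under 0.05, 12 members were higher and 1 was lower, against 7.48% and 6.55% of tested genes. In 14 members every siLSD1 library lay above every siCTR library, and in 2 every one lay below, against 11.4% and 9.97% of tested genes. An exact permutation test of 3 against 3 libraries cannot give a p below 0.10, so no such test was used for single genes. For 23 of the 41 members the 95% interval of the log2 fold change lay within −0.5 and 0.5, against 6134 of the 11844 tested genes.

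**Figure D1:**
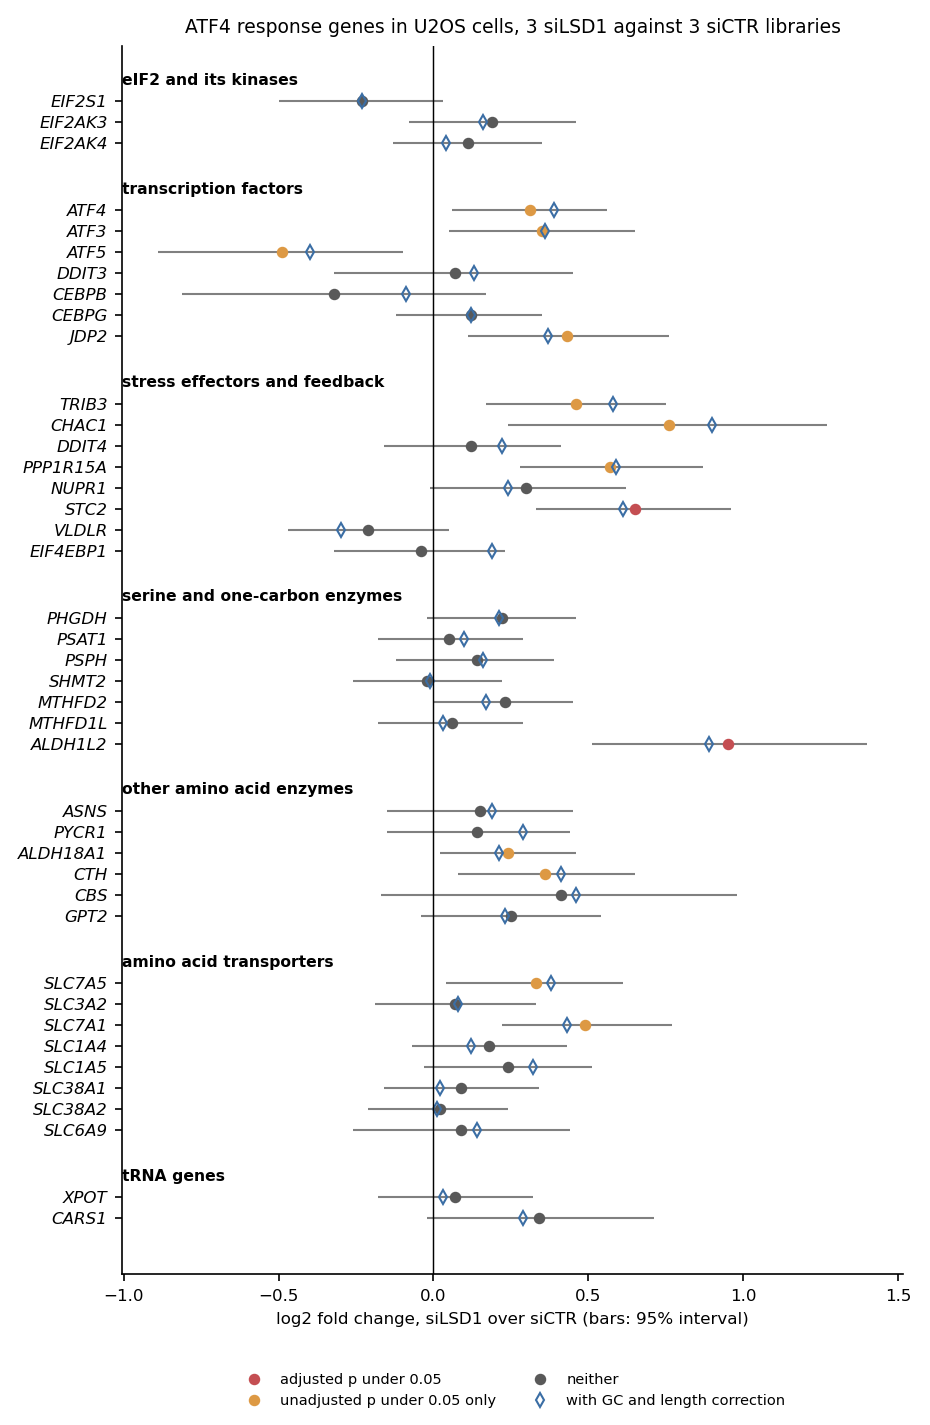
Fitted log2 fold change of siLSD1 over siCTR (x axis) for each of the 41 tested members, ordered by role (y axis), with 95% intervals as bars and the values after GC and length correction as open diamonds. Of the 41 filled points, 35 lie to the right of 0, and STC2 and ALDH1L2 are the 2 with an adjusted p under 0.05.

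The difference was present in each of the siLSD1 libraries. Relative to each gene's siCTR mean, the members' median log2 level was −0.02, 0.06 and −0.01 in siCTR replicates 1, 2 and 3, and 0.22, 0.18 and 0.14 in siLSD1 replicates 1, 2 and 3. The 3 siLSD1 medians thus lay above all 3 siCTR medians. Without siCTR replicate 2 the members' median log2 fold change was 0.22, with 0 members at an adjusted p under 0.05 in the edgeR test and 15 at an unadjusted p under 0.05, beside 12.7% of genes in that fit. Replicate 1 of siLSD1 was the highest of its group in 21 of the 41 members, beside 39.8% of all tested genes. In siCTR, replicate 2 was the highest in 24 members, beside 40.8% of all tested genes.

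**Figure D2:**
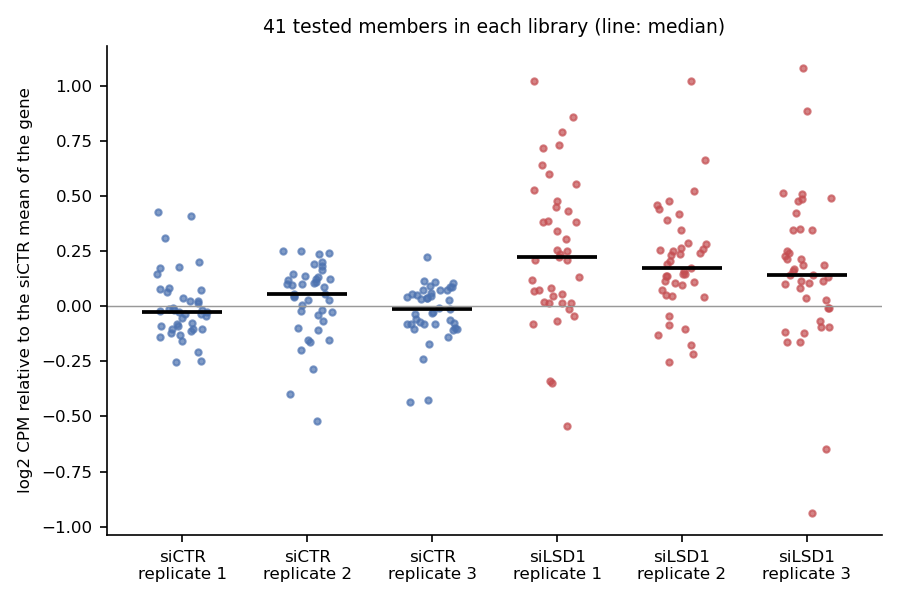
Log2 CPM of the 41 tested members relative to the gene's mean in siCTR (y axis) in each of the 6 libraries (x axis), with 1 point per gene and a black line at the median. The siLSD1 medians are 0.22, 0.18 and 0.14, and the siCTR medians lie between −0.02 and 0.06.

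The libraries also differed in their level of GC-rich genes, in siLSD1 in the same order as the members' medians and in siCTR in another order, and the part of GC content in those medians was not tested beyond the correction given next. Among the 20% of genes richest in GC, the median deviation from the mean of all libraries was 0.17, 0.02 and −0.31 on the log2 scale in siLSD1 replicates 1, 2 and 3, and 0.15, 0.03 and −0.03 in siCTR replicates 1, 2 and 3. The tested members had a median GC content of 51.3%, compared with 47.9% over all tested genes, and 10 of the 41 members were among these. With a correction of each library for GC content and gene length, 11 members had an adjusted p under 0.05 and were higher in siLSD1, against 4.5% of genes tested that way, and 0 members were lower, against 2.92% (Benjamini-Hochberg method on edgeR quasi-likelihood p-values). These 11 were ATF4, TRIB3, CHAC1, PPP1R15A, STC2, ALDH1L2, PYCR1, CTH, SLC7A5, SLC7A1 and SLC1A5. The members' median log2 fold change was 0.19 with the correction, so the median hardly moved while the number of members past the threshold did.

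Among the genes that start the response, EIF2S1 encodes the alpha subunit of eIF2, and EIF2AK3 and EIF2AK4 encode the kinases PERK and GCN2, which respond to ER stress and to uncharged tRNA. None of the 3 passed the test, the groups overlapped in all 3, and the log2 fold changes were −0.23 for EIF2S1, 0.19 for EIF2AK3 and 0.11 for EIF2AK4, with unadjusted p of 0.08, 0.157 and 0.338 from the same edgeR fit. Their intervals all lay within −0.5 and 0.5. Leaving out 1 library moved the log2 fold change between −0.33 and −0.14 for EIF2S1, 0.10 and 0.25 for EIF2AK3, and 0.06 and 0.17 for EIF2AK4.

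Of the 7 transcription factors, 5 had a fitted difference above 0 and 2 below 0, and none had an adjusted p under 0.05. ATF4, the central factor of the response (chromosome 22, 39519695 to 39522683, + strand, GRCh38), was at 196, 241 and 196 CPM in siCTR and 266, 253 and 267 CPM in siLSD1. All siLSD1 libraries thus lay above all siCTR libraries, with the siCTR replicate 2 value nearest to them. The means were 211 ± 26.1 CPM and 262 ± 8.10 CPM (SD, n = 3), with a log2 fold change of 0.31 (standard error 0.12, unadjusted p = 0.0185, adjusted p = 0.239, Benjamini-Hochberg method on edgeR quasi-likelihood p-values). With the GC and length correction the log2 fold change of ATF4 was 0.39 and its adjusted p 0.0195 in the same test. ATF4 has processed pseudogene copies in the genome, none with a row in the table, and how reads shared with them were counted is not stated.

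ATF3, a factor induced by ATF4 that also represses transcription of several stress genes, was at 18.9, 16.1 and 18.9 CPM in siCTR and 21.4, 21.9 and 25.3 CPM in siLSD1. JDP2, a related leucine zipper factor that dimerises with Jun and ATF proteins, was at 23.1, 25.2 and 22.3 CPM in siCTR and 38.7, 28.6 and 28.0 CPM in siLSD1. In both genes the groups did not overlap, with log2 fold changes of 0.35 for ATF3 and 0.43 for JDP2. The adjusted p was 0.278 for ATF3 and 0.202 for JDP2 (Benjamini-Hochberg method on edgeR quasi-likelihood p-values). JDP2 was highest in siLSD1 replicate 1, and without that library its log2 fold change was 0.27.

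CEBPG, a C/EBP partner of ATF4, also did not overlap between groups, but the separation was narrow. It was at 62.2, 64.4 and 62.9 CPM in siCTR and 66.5, 69.5 and 69.3 CPM in siLSD1, with a log2 fold change of 0.12 (95% interval −0.12 to 0.35). CEBPB, another C/EBP factor and the member richest in GC at 66.2%, was at 76.8 to 122 CPM in siCTR and 53.7 to 108 CPM in siLSD1, and the groups overlapped. Its log2 fold change was −0.32, and −0.09 with the GC and length correction. This value rested on single libraries, since leaving out siLSD1 replicate 3 gave −0.07 and leaving out siLSD1 replicate 1 gave −0.54. DDIT3, the gene for CHOP and a marker of prolonged stress, was at 6.24, 6.85 and 6.84 CPM in siCTR and 7.23, 6.18 and 7.49 CPM in siLSD1. The DDIT3 groups overlapped, its log2 fold change was 0.07 (95% interval −0.32 to 0.45), and 27.2% of its exonic bases are shared with MARS1 on the opposite strand, so the counts of DDIT3 are uncertain where strand was not used.

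ATF5, a factor of the mitochondrial stress response whose translation is controlled like that of ATF4, had the opposite direction. It was at 9.32, 11.4 and 13 CPM in siCTR and 7.60, 9.31 and 7.04 CPM in siLSD1. The groups did not overlap, although the lowest siCTR value and the highest siLSD1 value were 9.32 and 9.31. The log2 fold change was −0.49 (standard error 0.18, unadjusted p = 0.0188, adjusted p = 0.24, Benjamini-Hochberg method on edgeR quasi-likelihood p-values). ATF5 shares 19.5% of its exonic bases with NUP62 on the opposite strand, and the strandedness of the counting is not stated.

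**Figure D3:**
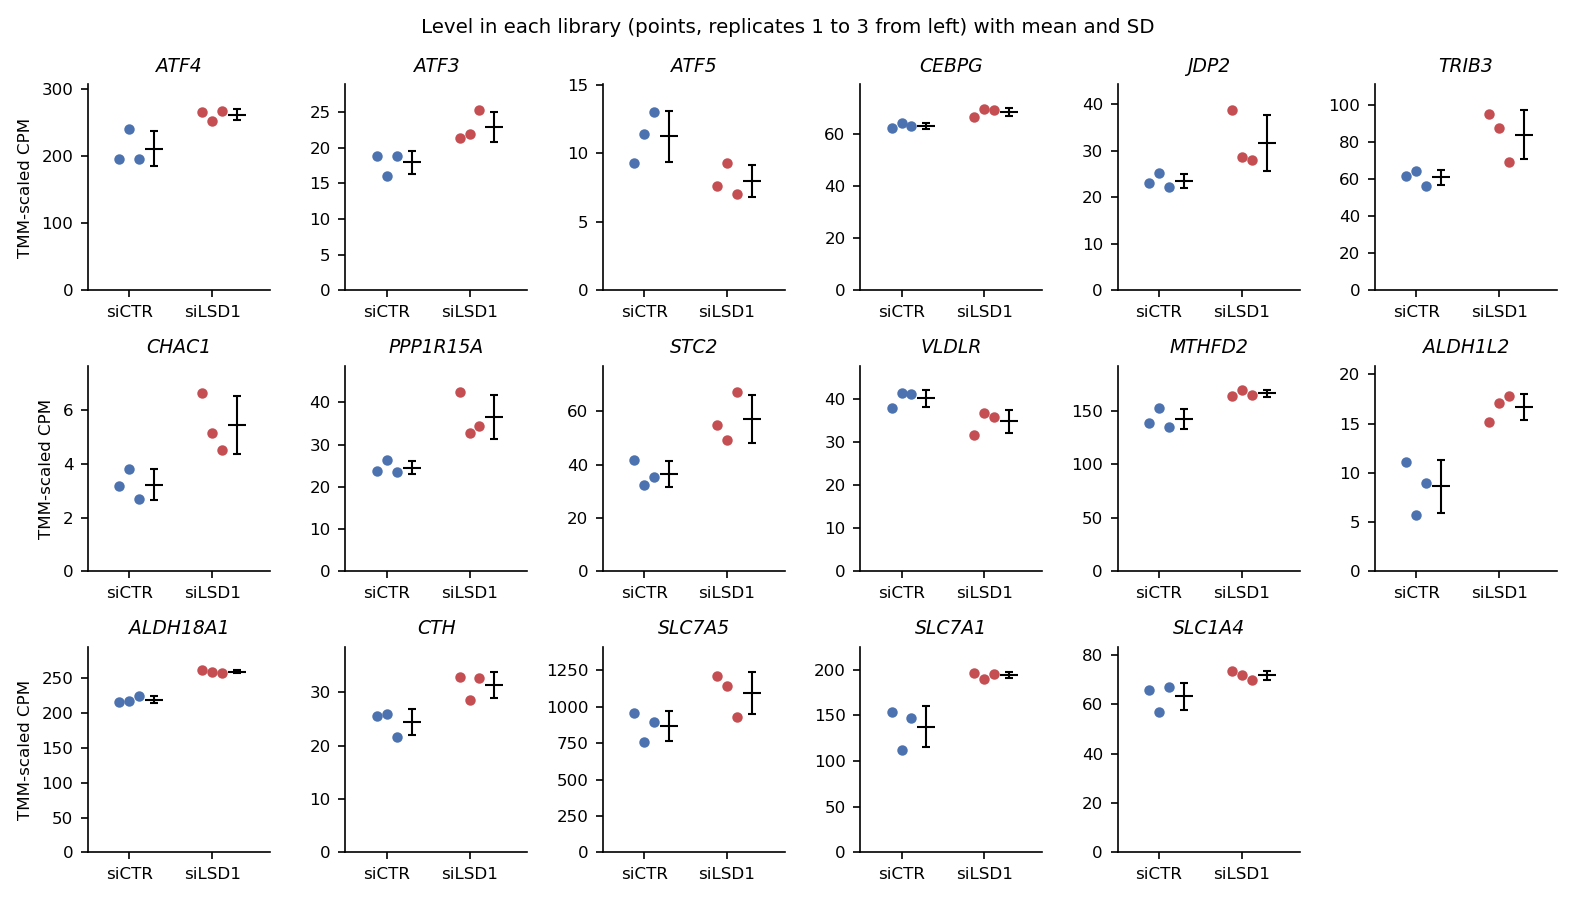
TMM-scaled CPM (y axis, from 0) in each siCTR and siLSD1 library for the 17 members with an unadjusted p under 0.05 or with groups that do not overlap; points are replicates 1 to 3 from left and the bars show mean and SD. The siLSD1 points lie below the siCTR points in ATF5 and VLDLR and above them in 14 members, while in SLC7A5 the ranges overlap (932 CPM in siLSD1 replicate 3 and 957 CPM in siCTR replicate 1).

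The stress effectors and feedback genes had the highest median of the role groups, 0.38 over the 8 tested, of which 6 were above 0 and 2 below. STC2, the gene for a secreted glycoprotein induced by ER stress (chromosome 5, 173314723 to 173328447, − strand, GRCh38), rose from 41.7, 32.4 and 35.4 CPM in siCTR to 55.1, 49.3 and 67.2 CPM in siLSD1. The lowest siLSD1 library was thus above the highest siCTR library. The means were 36.5 ± 4.73 CPM and 57.2 ± 9.12 CPM (SD, n = 3), a log2 fold change of 0.65 (standard error 0.15, adjusted p = 0.0478, Benjamini-Hochberg method on edgeR quasi-likelihood p-values). Leaving out 1 library at a time moved the adjusted p of STC2 between 0.0349 and 0.159 in the same test, and of these fits it stayed under 0.05 only in the one without siCTR replicate 1. It was also lost with limma-voom (adjusted p = 0.0534) and with edgeR scaled by library size alone (adjusted p = 0.0576).

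TRIB3, the gene for a pseudokinase that binds ATF4 and dampens the response, was at 61.8, 64.6 and 56.4 CPM in siCTR and 95, 87.5 and 69.3 CPM in siLSD1. PPP1R15A, which encodes the phosphatase subunit GADD34 that reverses eIF2 phosphorylation, was at 23.8, 26.3 and 23.6 CPM in siCTR and 42.5, 32.8 and 34.3 CPM in siLSD1. CHAC1, the gene for an enzyme that degrades glutathione, was at 3.16, 3.82 and 2.68 CPM in siCTR and 6.63, 5.14 and 4.52 CPM in siLSD1. In all 3 genes the groups did not overlap and siLSD1 replicate 1 was the highest library.

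The log2 fold changes were 0.46 (standard error 0.13) for TRIB3, 0.57 (0.14) for PPP1R15A and 0.76 (0.24) for CHAC1. The adjusted p was 0.127 for TRIB3, 0.0624 for PPP1R15A and 0.167 for CHAC1, so none of them passed the test (Benjamini-Hochberg method on edgeR quasi-likelihood p-values). With the GC and length correction the adjusted p was 0.000627, 0.0053 and 0.0157 in that order, in the same test. TRIB3 and CHAC1 have a GC content of 61.5% and 61.2%. Within siLSD1 both were lowest in replicate 3, the library with the lowest median level of GC-rich genes. PPP1R15A, with a GC content of 57.7%, was lowest within siLSD1 in replicate 2. The part of GC content in the levels of these genes was not tested. CHAC1 rests on 36 to 49 reads per siCTR library and 61 to 89 per siLSD1 library, and its 95% interval of 0.24 to 1.27 was correspondingly wide.

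The other effectors did not pass the test. NUPR1, the gene for a small stress-induced chromatin protein, was at 60.3 to 78.6 CPM in siCTR and 73.4 to 97.6 CPM in siLSD1 (log2 fold change 0.30, 95% interval −0.01 to 0.62), with overlapping groups. Its log2 fold change moved between 0.17 and 0.44 when 1 library was left out. DDIT4, which encodes the mTORC1 inhibitor REDD1, and EIF4EBP1, a repressor of cap-dependent translation, also overlapped, with log2 fold changes of 0.12 and −0.04. EIF4EBP1 changed sign with the GC and length correction, to 0.19. VLDLR, a lipoprotein receptor gene, was at 38.0, 41.5 and 41.3 CPM in siCTR and 31.8, 36.8 and 36.0 CPM in siLSD1. Every siLSD1 library was below every siCTR library for VLDLR, with a log2 fold change of −0.21 (unadjusted p = 0.106, edgeR quasi-likelihood test), and thus outside even the unadjusted threshold.

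Of the serine and one-carbon enzymes, 7 were tested, 6 were above 0 and 1 below, the median log2 fold change was 0.14, and 1 passed the test. This gene was ALDH1L2, which encodes the mitochondrial formyltetrahydrofolate dehydrogenase, an enzyme that oxidises one-carbon units and yields NADPH (chromosome 12, 105019784 to 105107643, − strand, GRCh38). ALDH1L2 rose from 11.1, 5.76 and 9 CPM in siCTR to 15.2, 17.1 and 17.8 CPM in siLSD1. The siCTR libraries were spread widely and replicate 2 was the lowest, but all lay below the siLSD1 libraries.

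The ALDH1L2 means were 8.62 ± 2.68 CPM and 16.7 ± 1.34 CPM (SD, n = 3), which is 1.94-fold higher in the fit. Its log2 fold change of 0.95 (standard error 0.21, 95% interval 0.51 to 1.40, adjusted p = 0.0394, Benjamini-Hochberg method on edgeR quasi-likelihood p-values) was the highest of the tested members. Without siCTR replicate 2 the log2 fold change was 0.74 and the adjusted p 0.0902 in the same test. The adjusted p stayed under 0.05 in 1 of the 6 leave-one-out fits, the one without siCTR replicate 1, where it was 0.0119 in that test.

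None of the genes of serine synthesis itself passed the test. PHGDH, the gene for the first enzyme of that pathway, was at 125, 148 and 134 CPM in siCTR and 167, 160 and 147 CPM in siLSD1. The PHGDH groups overlapped by a narrow margin, at 148 CPM in siCTR replicate 2 and 147 CPM in siLSD1 replicate 3, with a log2 fold change of 0.22 (95% interval −0.02 to 0.46, adjusted p = 0.406, Benjamini-Hochberg method on edgeR quasi-likelihood p-values). PSAT1 and PSPH, which encode the following steps, had log2 fold changes of 0.05 (95% interval −0.18 to 0.29) and 0.14 (95% interval −0.12 to 0.39), with overlapping groups. The 3 serine synthesis genes were thus within 0.5 on the log2 scale of no change.

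In the mitochondrial folate pathway, MTHFD2, the gene for a dehydrogenase of methylenetetrahydrofolate, was at 139, 153 and 135 CPM in siCTR and 164, 170 and 165 CPM in siLSD1. The MTHFD2 groups did not overlap, and the log2 fold change was 0.23 (standard error 0.10, unadjusted p = 0.0508, adjusted p = 0.357, Benjamini-Hochberg method on edgeR quasi-likelihood p-values). MTHFD2 shares 11.6% of its exonic bases with SLC4A5 on the opposite strand. SHMT2 and MTHFD1L, the formyltetrahydrofolate synthetase gene, overlapped between groups, with log2 fold changes of −0.02 and 0.06. The high fold change of ALDH1L2 was thus not matched by the other mitochondrial folate enzymes in the set, although the difference between these genes was not tested.

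All 6 of the other amino acid enzymes were above 0, with a median log2 fold change of 0.24, and none passed the test. ALDH18A1, which encodes the enzyme that makes the glutamate semialdehyde used for proline, was at 216, 217 and 224 CPM in siCTR and 261, 258 and 257 CPM in siLSD1. The libraries of each ALDH18A1 group lay close together and the groups did not overlap, with a log2 fold change of 0.24 (standard error 0.10, adjusted p = 0.297, Benjamini-Hochberg method on edgeR quasi-likelihood p-values). CTH, the gene for the cystathionine gamma-lyase that yields cysteine, was at 25.6, 26.0 and 21.6 CPM in siCTR and 32.9, 28.6 and 32.7 CPM in siLSD1. The CTH groups did not overlap either, with a log2 fold change of 0.36 (standard error 0.13, adjusted p = 0.227, and 0.045 with the GC and length correction, Benjamini-Hochberg method on edgeR quasi-likelihood p-values).

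ASNS, which encodes asparagine synthetase and is a widely used readout of this response, was at 70.9, 96.2 and 87.7 CPM in siCTR and 85.5, 90 and 107 CPM in siLSD1. The ASNS groups overlapped, and its log2 fold change was 0.15 (95% interval −0.15 to 0.45, adjusted p = 0.653, Benjamini-Hochberg method on edgeR quasi-likelihood p-values). Leaving out 1 library moved that value between 0.04 and 0.25. ASNS has pseudogene copies, and 49.3% of its exonic bases are shared with a non-coding transcript on the same strand, so its counts are uncertain in part. PYCR1, the gene for the last enzyme of proline synthesis, GPT2, a mitochondrial alanine aminotransferase gene, and CBS, the gene upstream of CTH in transsulfuration, had log2 fold changes of 0.14, 0.25 and 0.41, all with overlapping groups. The PYCR1 value was 0.01 without siLSD1 replicate 1 and 0.29 with the GC and length correction (adjusted p = 0.0301 in edgeR). PYCR1 shares 15.6% of its exonic bases with a non-coding transcript on the opposite strand and 14.1% with MYADML2 on the same strand. Of PYCR1, GPT2 and CBS, the last had the fewest reads, 35 to 81 per library. The CBS interval ran from −0.17 to 0.98, and leaving out 1 library moved its log2 fold change between 0.21 and 0.66.

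All 8 amino acid transporter genes were above 0, with a median log2 fold change of 0.14, and none passed the test. SLC3A2, SLC38A2 and SLC6A9 were close enough to 0 that leaving out 1 library turned their sign. SLC7A1, which encodes the cationic amino acid transporter for arginine and lysine, was at 154, 112 and 147 CPM in siCTR and 196, 190 and 195 CPM in siLSD1. The SLC7A1 siLSD1 libraries were nearly equal, while siCTR replicate 2 stood below the other siCTR libraries. The means were 138 ± 22.6 CPM and 194 ± 3.27 CPM (SD, n = 3), a log2 fold change of 0.49 (standard error 0.13, adjusted p = 0.0843, Benjamini-Hochberg method on edgeR quasi-likelihood p-values). Without siCTR replicate 2 it was 0.37, and with the GC and length correction it was 0.43 with an adjusted p of 0.00652 in the same test.

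SLC7A5, the gene for the light chain of the large neutral amino acid transporter, had the highest read count of the members. It was at 957, 755 and 898 CPM in siCTR and 1210, 1140 and 932 CPM in siLSD1. The groups overlapped in 1 library of each, and the log2 fold change was 0.33 (standard error 0.13, unadjusted p = 0.0266, adjusted p = 0.276, Benjamini-Hochberg method on edgeR quasi-likelihood p-values). SLC3A2, which encodes the heavy chain that pairs with it, had a log2 fold change of 0.07 (95% interval −0.19 to 0.33), with overlapping groups.

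SLC1A4, which encodes a transporter of small neutral amino acids including serine, was at 65.9, 56.8 and 67.0 CPM in siCTR and 73.5, 72.1 and 69.7 CPM in siLSD1. Its groups did not overlap, and its log2 fold change was 0.18 (95% interval −0.07 to 0.43). SLC1A5, the gene for a glutamine transporter, was at 152 to 159 CPM in siCTR and 154 to 211 CPM in siLSD1, with a log2 fold change of 0.24. That value was 0.13 without siLSD1 replicate 1 and 0.32 with the GC and length correction (adjusted p = 0.0236 in edgeR). SLC1A5 shares 23.4% of its exonic bases with a non-coding transcript on the opposite strand. The groups overlapped in SLC1A5, in the glutamine transporter genes SLC38A1 and SLC38A2 and in the glycine transporter gene SLC6A9. SLC38A1, SLC38A2 and SLC6A9 were at 0.09, 0.02 and 0.09 on the log2 scale. SLC38A2, a gene known to be induced by amino acid shortage, thus had an interval of −0.21 to 0.24 around a value near 0.

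The tRNA genes were XPOT, which encodes the exporter of tRNA from the nucleus, and CARS1, the cysteinyl-tRNA synthetase gene, listed in the table under its older symbol CARS. XPOT had a log2 fold change of 0.07 (95% interval −0.18 to 0.32). CARS1 was at 10.2 to 11.7 CPM in siCTR and 11.3 to 15.9 CPM in siLSD1, with a log2 fold change of 0.34 (95% interval −0.02 to 0.71). The groups overlapped in both genes.

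Levels per gene length, as the FPKM values of the deposited table give them, placed the set across a wide range of expression. Of the 41 tested members, 13 were in the upper 10% of tested genes by mean FPKM and 12 in the lower 50%. The transporter genes SLC7A5, SLC38A2 and SLC3A2 stood highest in siCTR, at 190 ± 24.9, 145 ± 7.97 and 121 ± 8.62 FPKM (SD, n = 3), followed by PSAT1 at 118 ± 8.84 FPKM, which is within the SD of SLC3A2. ATF4 itself was at 83.8 ± 9.37 FPKM in siCTR and 104 ± 3.64 FPKM in siLSD1. The lowest tested members in siCTR were ALDH1L2 at 1.14 ± 0.368 FPKM, CBS at 1.33 ± 0.419 FPKM and CHAC1 at 1.56 ± 0.263 FPKM, whose SDs overlap, so their order is not resolved. ALDH1L2, the member with the highest fold change, was thus among the members of lowest level, and STC2 lay between these extremes at 6.81 ± 0.964 FPKM in siCTR and 10.7 ± 1.68 FPKM in siLSD1.

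**Figure D4:**
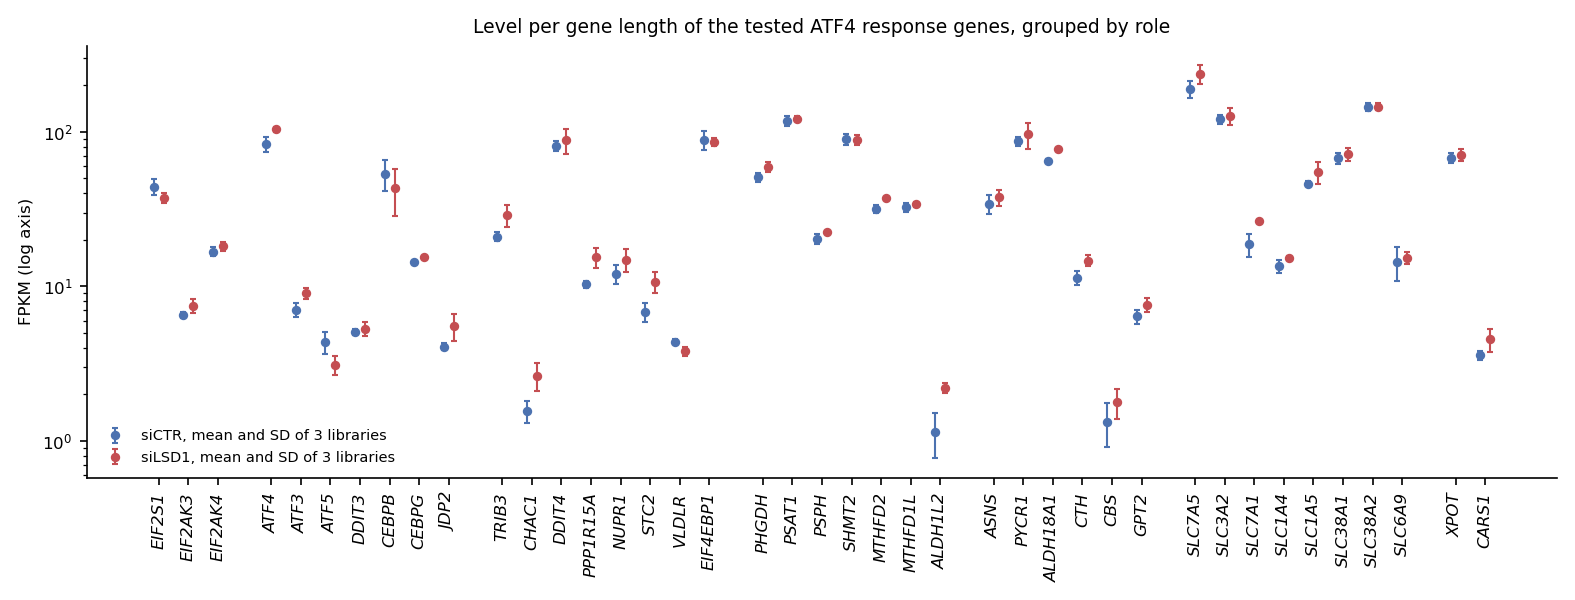
FPKM (y axis, log scale) of the 41 tested members in siCTR and siLSD1, grouped by role (x axis), as mean and SD of 3 libraries. SLC7A5 is highest at 190 FPKM in siCTR, and ALDH1L2, CBS and CHAC1 are lowest, at 1.14, 1.33 and 1.56 FPKM.

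The letters of the composite element occurred both in members that were higher and in members that were not, and the difference in share was not tested. Of the 11 members that were higher at an unadjusted p under 0.05 and had a promoter sequence, 4 held TGATGNAA, namely ATF3, JDP2, CHAC1 and SLC7A1. Of the other 23 tested members with a promoter sequence, 8 held it. No promoter was at hand for ALDH1L2, and the STC2 promoter window did not hold the letters, which says only that they are absent from those 300 bases.

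Further genes of the pathways, taken from lists and not from the member set, were described in the same fit. Of 50 such genes, 45 were tested, 27 were above 0 and 18 below, with a median log2 fold change of 0.05. At an adjusted p under 0.05, 1 rose and 1 fell, beside 1.07% and 0.371% of all tested genes. Of 14 other eIF2 pathway genes, 6 were above 0 and 8 below, the median was −0.02, and none passed the test. The lowest p among them was that of EIF2B4, a subunit gene of the eIF2B exchange factor, which was at 52.8, 60.1 and 54.3 CPM in siCTR and 40.2, 43.2 and 46.0 CPM in siLSD1. Its groups did not overlap, and the log2 fold change was −0.37 (adjusted p = 0.173, and 0.0269 with the GC and length correction, Benjamini-Hochberg method on edgeR quasi-likelihood p-values).

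EIF2AK1, the gene for the heme-sensing eIF2 kinase and named after its values were seen, went the other way, at 232, 203 and 232 CPM in siCTR and 258, 280 and 301 CPM in siLSD1. Its groups did not overlap either, and its log2 fold change was 0.33 (adjusted p = 0.196, and 0.0385 with the GC and length correction, both by the edgeR test above).

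Of 18 other ATF4 targets tested, 13 were above 0 and 5 below, with a median log2 fold change of 0.13. AARS1, the alanyl-tRNA synthetase gene, rose from 335, 317 and 326 CPM in siCTR to 475, 443 and 448 CPM in siLSD1, with a log2 fold change of 0.48 (standard error 0.10, adjusted p = 0.0364, Benjamini-Hochberg method on edgeR quasi-likelihood p-values). HMOX1, the gene for heme oxygenase and also a target of NRF2, fell from 34.7, 36.3 and 31.3 CPM in siCTR to 24.1, 19.3 and 18.2 CPM in siLSD1, by 0.73 on the log2 scale (standard error 0.14, adjusted p = 0.0228, same test). The AARS1 and HMOX1 groups did not overlap. Of the 6 leave-one-out fits, AARS1 was under the threshold in 1, that without siCTR replicate 2, and HMOX1 in 2, those without siCTR replicate 1 and siLSD1 replicate 1, and the adjusted p reached 0.183 and 0.136 in the others in that test.

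A pair of ATF4 targets was chosen for mention after their values were seen. SLC7A11, the gene for the cystine transporter light chain, was at 56.1, 51.5 and 57.5 CPM in siCTR and 73.0, 72.3 and 72.4 CPM in siLSD1. GDF15, the gene for a secreted stress cytokine, was at 17.2, 25.8 and 15.5 CPM in siCTR and 14.2, 11.1 and 10.2 CPM in siLSD1. Neither passed the test, with log2 fold changes of 0.40 for SLC7A11 (adjusted p = 0.11) and −0.72 for GDF15 (adjusted p = 0.122) from the Benjamini-Hochberg method on edgeR quasi-likelihood p-values, and the groups did not overlap in either. The GDF15 value was −0.46 without siCTR replicate 2, its highest library, and the adjusted p was 0.0397 with DESeq2 and 0.0353 with no filter on low counts in edgeR. With the GC and length correction the log2 fold change was 0.36 for SLC7A11 (adjusted p = 0.0385) and −0.49 for GDF15 (adjusted p = 0.0557), again from edgeR. Since the pair was chosen by its values, its opposite signs add nothing to the count over the list, 13 above 0 and 5 below.

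Of the other folate and methionine cycle genes, 13 of 16 were tested, 8 were above 0 and 5 below, and the median log2 fold change was 0.01. None passed the test. Cytosolic MTHFD1 and the methionine adenosyltransferase gene MAT2A, named after their values were seen, had log2 fold changes of 0.05 and 0.01.

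**Figure D5:**
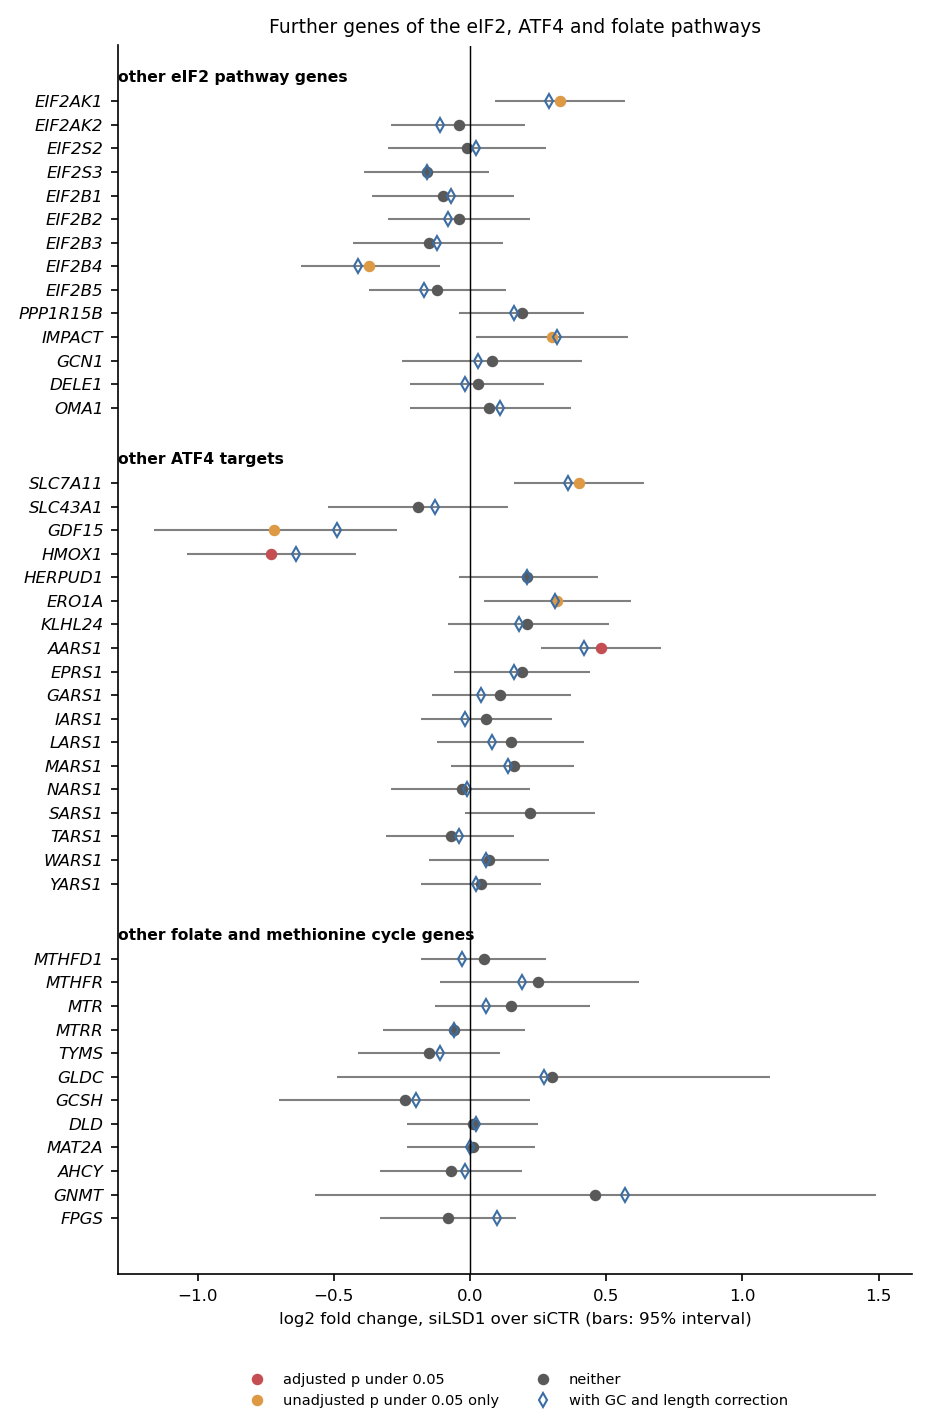
Fitted log2 fold change of siLSD1 over siCTR (x axis) with 95% intervals for 44 of the 45 tested genes of the further eIF2, ATF4 target and folate lists (y axis), with open diamonds after GC and length correction. AARS1 at 0.48 and HMOX1 at −0.73 are the 2 genes with an adjusted p under 0.05, and the median of all 45 is 0.05.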

How the data were processed

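RNA-seq counts of U2OS cells (3 siCTR, 3 siLSD1 libraries) were grouped by their labels. The authors aligned reads with STAR and deposited whole-read counts per gene, without normalization. They also deposited FPKM values and a second set of counts in tables of same-numbered library pairs. The build, annotation, counter, strandedness and STAR version are not given in the sources used here. The deposited columns of fold changes and p-values were not used.

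Counts were scaled with TMM in edgeR 4.0.16 (R 4.3.3) and filtered with filterByExpr (minimum count 10), and 11844 genes were compared with the quasi-likelihood test and Benjamini-Hochberg adjustment. CPM values are TMM-scaled. A call is an adjusted p under 0.05. Replicates had a biological coefficient of variation, as edgeR names it, of 12.6%, and no library pair was alike within sampling noise. Neither shows whether the replicates came from separate cultures, and this spread may be technical. On simulated counts with 200 of 11855 genes changed by 1 on the log2 scale, 171 (85.5%) were recovered and 7 of 178 calls were false. That change was larger than the fitted change of any tested member (median 0.18, highest 0.95). Recovery of smaller changes was not simulated, and the simulated counts held no GC trend and no shared replicate effect.

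Alternatives were DESeq2 1.42.0, limma-voom (limma 3.58.1), other scalings and filters, a replicate block, a lowess correction (span 0.3) for GC content and length, the second counts, and leaving out each library. GC content, positions and exon overlaps come from GENCODE 44 on GRCh38, to which 15355 of 15585 symbols were matched, 392 through RefSeq synonyms. Promoters are from RefSeq on GRCh38.p14. Python 3.11.15, numpy 2.4.6, pandas 2.3.3 and matplotlib 3.10.9 were used.

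Members, role groups and the further gene lists were chosen with earlier results of these data known. Members with an adjusted p under 0.05, with an unadjusted p under 0.05 or with non-overlapping groups, and ATF4, DDIT3, TRIB3, ASNS, PHGDH and CHAC1 in any case, are given library by library. Further genes are named at an adjusted p under 0.05 or as the lowest p of their list, except 1 gene that is not reported here. Genes outside this rule are marked in the text as named after their values were seen.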

Additional observations from a re-analysis of the deposited data

How the results depend on the processing

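The members' median log2 fold change lay between 0.17 and 0.22 in all 16 alternatives, and 33 of the 41 tested members kept their sign in each of them. The number of members and of genes past an adjusted p under 0.05 did depend on the processing. Against 2 members and 171 genes (127 higher, 44 lower), DESeq2 gave 4 members and 323 genes, no filter 4 members and 290 genes (in both PPP1R15A and SLC7A1 beside STC2 and ALDH1L2), limma-voom 1 member and 159 genes, and scaling by library size 0 members and 153 genes, with STC2 at an adjusted p of 0.0576 and ALDH1L2 at 0.0538 in edgeR with Benjamini-Hochberg adjustment and 14 members at an unadjusted p under 0.05, beside 14.0% of genes. The GC and length correction gave 11 members and 873 genes (530 higher, 343 lower), with 20 members (17 higher, 3 lower) and 24.3% of genes at an unadjusted p under 0.05, beside 13 members and 14.0% of genes without it. Without 1 library the number of members called ranged from 0 to 2 and of genes called from 58 to 136. It was 2 without siCTR replicate 1, 1 (TRIB3) without siLSD1 replicate 3 and 0 without any of the other 4, where 10 to 15 members and 8.86% to 14.2% of genes had an unadjusted p under 0.05. The cause was not tested.

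The numbers were not taken to pair the samples, since no source says what they mark and 1 of the 3 correlations of same-numbered deviations (0.347, 0.08 and 0.339) was under 0.1. As a hint from the data, each siLSD1 library correlated best with the siCTR library of its own number. The median level of GC-rich genes also fell from replicate 1 to 3 in both groups. In addition, the authors deposited the second counts in tables of same-numbered pairs. With a replicate block, 8 members (JDP2, TRIB3, CHAC1, PPP1R15A, STC2, ALDH1L2 and SLC7A1 higher, CEBPB lower) and 897 genes were called, and 20 members (17 higher, 3 lower) and 21.5% of genes had an unadjusted p under 0.05. With the replicate block and the GC and length correction together, 12 members (VLDLR lower) and 1300 genes were called, and 25 members and 28.1% of genes had an unadjusted p under 0.05. Of the further genes named, AARS1 and HMOX1 passed with the replicate block as in the edgeR fit with none of the alternatives. EIF2B4 (adjusted p = 0.0414), SLC7A11 (0.0207) and GDF15 (0.00123) passed in edgeR with the block and not in the fit with none of the alternatives.

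EIF4EBP1 changed sign to 0.19 with the GC and length correction and to 0.18 with the replicate block added. Over the fits without 1 library, log2 fold changes crossed 0 for EIF4EBP1 (−0.12 to 0.09), SHMT2 (−0.08 to 0.06), PSAT1 (−0.02 to 0.11), SLC38A2 (−0.02 to 0.06), SLC6A9 (−0.09 to 0.25), DDIT4 (−0.02 to 0.22), SLC3A2 (−0.00 to 0.16) and XPOT (−0.01 to 0.14).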
